A study of Mus musculus with 8 samples.

Results

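The 10 genes described here encode secreted carrier proteins of plasma that are made by hepatocytes: Alb, Ttr, Trf, Ahsg, Gc, Rbp4, Fetub, Ambp, Cp and Hrg. They were taken by symbol from 24539 RNA-seq and 25033 Ribo-seq entries, of which 24079 symbols stood in both assays, and all 10 were listed in all 8 libraries. The study asked how betaine, a methyl donor, acts on the liver of mice fed a high-fat diet. The HF group comprised C57BL/6 mice given feed with 45% kcal fat from 8 weeks of age, and the HB group received the same feed with betaine at 2% (w/v) in water. Both groups therefore carried the high-fat diet, and mice on standard feed were not analysed here. Labels give 6 mice per group and an age of 25 weeks at collection, and their protocol also gives 25 weeks of feeding, whereas a start at 8 weeks leaves 17 weeks, the time also named in the methods. RNA-seq read polyadenylated mRNA and Ribo-seq read ribosome protected fragments (RPF, footprints) of liver, with 2 libraries per group and assay. Per the methods, 2 mice per group, those nearest to the mean body weight, went into sequencing, whereas the labels describe pooled preparations, so p-values here measure the spread between libraries, which may be technical. Values are RPKM, the reads per kilobase of gene scaled to the reads of the library, and translation efficiency (TE) is footprint RPKM divided by mRNA RPKM of the library with the same group and number.

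Plasma carriers bind hormones, vitamins, metals and fatty acids that dissolve poorly or are harmful when free, and deliver them between tissues. Hepatocytes translate these mRNAs on the rough endoplasmic reticulum and secrete the proteins, which makes them some of the most abundant products of the liver. Several of them fall during inflammation or poor nutrition (negative acute phase proteins, such as albumin, transthyretin and Ahsg), whereas ceruloplasmin rises during inflammation.

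Genome positions and start sites are from RefSeq on GRCm38.p6. The region before the start was searched for 8 of the 10 genes, and Ttr and Trf were not part of this search. The 120 bases before a start were searched on both strands for 4 motifs. The TATA box was spelled TATAAA, and the CCAAT box was searched as CCAAT. For the hepatocyte factor HNF1 a part of its site was used, spelled GTTAAT. The core bound by C/EBP factors was spelled TTGCNNAA. A match to a motif could overlap one to another. The windows of 5 genes are printed 5′ to 3′ on the gene's strand because they cover Rbp4, Ahsg and Fetub, whose mRNA differences were large and of both signs, and albumin with its family member Gc. Capitals mark the matches.
Alb (plus strand, chr5:90460750-90460869): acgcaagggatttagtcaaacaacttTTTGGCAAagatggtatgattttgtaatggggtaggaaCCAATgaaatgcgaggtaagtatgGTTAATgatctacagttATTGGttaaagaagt
Gc (minus strand, chr5:89457899-89458018): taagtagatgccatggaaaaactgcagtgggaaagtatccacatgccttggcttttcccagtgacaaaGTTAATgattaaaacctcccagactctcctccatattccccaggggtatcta
Rbp4, start with a TATA box (minus strand, chr19:38124812-38124931): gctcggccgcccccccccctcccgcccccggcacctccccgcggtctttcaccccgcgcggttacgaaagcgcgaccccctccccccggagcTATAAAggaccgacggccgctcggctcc
Ahsg (plus strand, chr16:22891895-22892014): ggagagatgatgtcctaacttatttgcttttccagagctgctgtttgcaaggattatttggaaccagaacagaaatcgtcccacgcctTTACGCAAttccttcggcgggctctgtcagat
Fetub, upstream start (plus strand, chr16:22918262-22918381): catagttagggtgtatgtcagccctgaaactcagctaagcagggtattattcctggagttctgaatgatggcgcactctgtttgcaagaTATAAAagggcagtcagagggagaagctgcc

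The windows of Alb and Gc both held GTTAAT, a match found in 3% of 32851 windows of this length, and they were the only genes with it among the 8. TATAAA stood in a window of Cp, Fetub and Rbp4 (6.34% of all windows), TTGCNNAA in a window of Cp, Alb and Ahsg (4.15%) and CCAAT in a window of Cp, Ambp, Alb and Hrg (21.3%). Rbp4 and Fetub, with mRNA differences of opposite sign, thus shared a TATAAA match, whereas Ahsg had none in its window. These matches are letters in a window and were not linked to binding.

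Liver identity was checked first. All 10 hepatocyte markers, from Apoa1 to Hnf4a, were listed above 0, with a summed mRNA level of 18904 to 23641 RPKM and 0 of 10 past the test between groups. Depth differed between libraries, since recovered reads numbered 11661207 to 22543470 in RNA-seq but only 141890 to 1056546 in Ribo-seq, with the lowest total in HB library 2. In Ribo-seq, symbols of short RNAs held 59.6% and 64.8% of the RPKM sum in HF and 69.3% and 82.8% in HB. Among markers of other cells, 3 of 5 erythroid genes were higher in HB mRNA (7.92% of all genes tested), and their summed level was 675 and 523 RPKM in HF against 738 and 2249 RPKM in HB. Of the Kupffer cell markers 2 of 8 were higher (Cd5l and Marco, summed level of all 8 between 112 and 140 RPKM), and of the endothelial markers 1 of 6 was lower (Stab2, beside 19.1% of all genes). Of 5 stellate and 2 bile duct markers tested 0 passed by limma, and at an unadjusted p under 0.05 1 stellate gene was higher (12.9% of all genes higher, 27.6% lower). None of the 5 lymphocyte markers reached the minimum level for the test in mRNA. The summed mRNA level of the stellate markers was 52.4 and 44.8 RPKM in HF and 89.1 and 61.1 RPKM in HB. The bile duct sums were 26.2 and 31.9 against 15.7 and 26.0 RPKM, and the lymphocyte sums 3.08 and 4.99 against 1.95 and 1.97 RPKM. In footprints 0 markers passed, and 0 of 8 Kupffer (median log2 difference -0.71), 0 of 6 endothelial (-1.11) and 0 of 5 stellate genes (-1.04) lay above 0, against a median of -0.43 for all genes, while erythroid genes had a median of 0.01. The part of these markers in the results was not tested.

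At the mRNA level, Trf and Rbp4 were higher in HB than in HF by about 2-fold and Fetub was lower by a similar factor, and the other 7 genes did not pass the test. Calls are an adjusted p under 0.05 in limma with Benjamini-Hochberg adjustment over 10687 genes. Thus 2 of 10 carriers were called higher, beside 7.92% of all tested genes, and 1 of 10 lower, beside 19.1%. The median log2 difference of the 10 genes was 0.29 and that of all tested genes was -0.19, with 8 of 10 carriers above 0. When log2 values were shifted to a common median, the median of all genes became 0.08 and that of the carriers 0.57, a shift that moves all genes alike and leaves the gap between them as it was. Over all genes, 846 were called higher and 2044 lower as deposited, and 1519 higher and 1039 lower with a common median. By the thresholds of the study (log2 beyond 1 and an unadjusted p under 0.001) 0 of 10 carriers passed, beside 2.30% of genes higher and 6.56% lower. In whole liver, fewer cells of a type and less RNA per cell cannot be told apart. Both HB libraries lay above both HF libraries for 6 of 10 carriers (24.8% of all tested genes) and below them for 1 of 10 (43.3%).

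**Figure D1:**
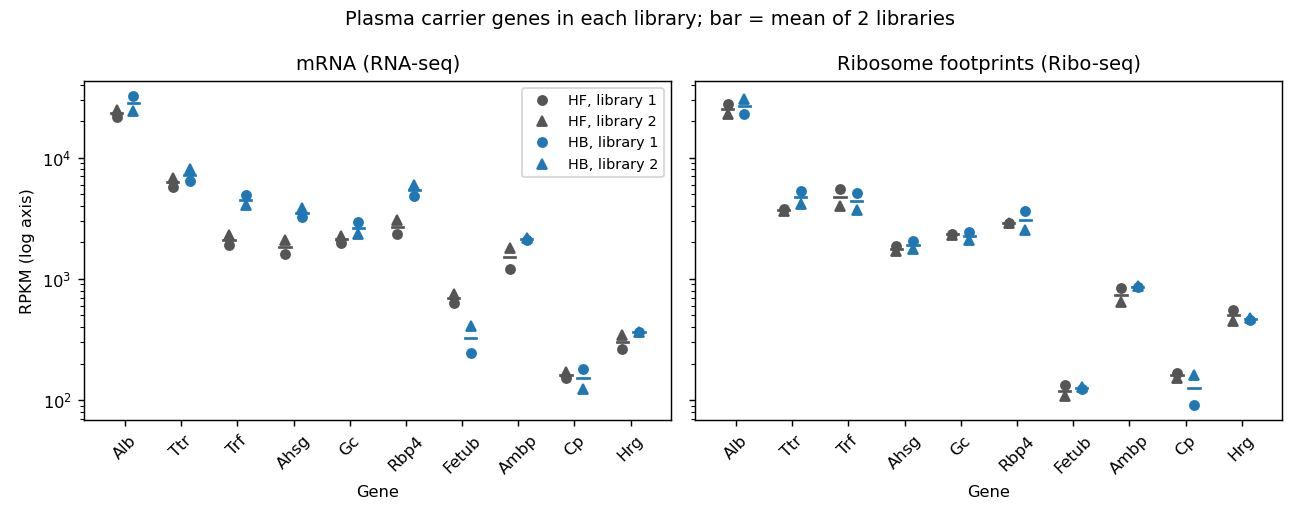
RPKM of each of the 10 carrier genes (log axis) in the HF and HB libraries of RNA-seq and Ribo-seq, with circles for library 1, triangles for library 2 and bars for the mean of 2 libraries. Trf, Ahsg and Rbp4 mRNA separated upwards and Fetub mRNA downwards in HB, while the footprint values of these 4 genes overlapped between groups.

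**Figure D2:**
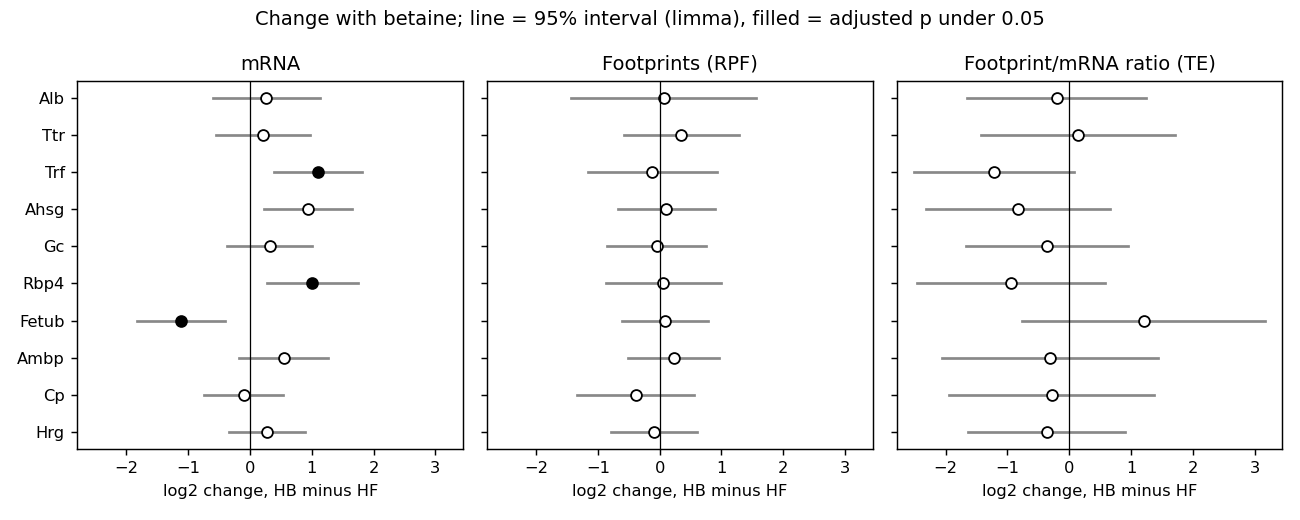
Log2 difference of HB from HF for mRNA, footprints and TE, with 95% intervals from limma and filled points for an adjusted p under 0.05. Filled points stand only at Trf, Rbp4 and Fetub in mRNA, and all intervals of footprints and TE include 0.

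Albumin and the vitamin D binding protein Gc come from 1 gene family and lie 1003 kb apart on chromosome 5 (Alb at 90460870 to 90476602, Gc at 89417511 to 89457898). Alb, which binds fatty acids and holds the osmotic pressure of plasma, was the highest carrier in all 8 libraries. Its mRNA measured 21470 and 24883 RPKM in HF and 31910 and 24178 RPKM in HB. The groups overlapped, since HB library 2 lay below HF library 2. The log2 difference was 0.27 (SE 0.38, adjusted p = 0.634), with a 95% interval from 0.662-fold to 2.18-fold. Gc, the carrier of vitamin D and of actin freed from damaged cells, measured 1980 and 2260 RPKM in HF and 2937 and 2363 RPKM in HB. Its HB libraries both lay above HF, but the gap between HF library 2 and HB library 2 was small beside the spread within HB, and the difference of 0.32 did not pass (SE 0.31, adjusted p = 0.470). Alb took 46.9% of the summed mRNA RPKM of the 10 genes in HB library 2 and 55.9% to 57.5% in the other 3 libraries.

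Neither gene of this pair passed in footprints. Alb footprints measured 27734 and 22846 RPKM in HF and 22774 and 30373 RPKM in HB, with the highest and the lowest values both in HB. Gc footprints were 2338 and 2323 RPKM in HF and 2421 and 2108 RPKM in HB. Both genes overlapped between groups. The 95% interval was 0.370-fold to 2.95-fold for Alb and 0.557-fold to 1.69-fold for Gc as deposited, and with a common RPKM sum the log2 differences were -0.81 and -0.92.

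Transthyretin and Rbp4 circulate as a complex, in which Rbp4 carries retinol and Ttr carries thyroxine. Rbp4 (chromosome 19, 38116620 to 38125321) had 2358 and 3033 RPKM of mRNA in HF and 4805 and 5988 RPKM in HB. Every HB library exceeded every HF library, and the spread within a group was smaller than the gap between groups. The log2 difference was 1.00 (SE 0.33, adjusted p = 0.0480), a 2.01-fold higher level, with a 95% interval from 1.20-fold to 3.34-fold. This call sat just under the threshold and was lost without a filter on low values (adjusted p = 0.191), with crossed replicate numbers as a block, a setting chosen after seeing the data (adjusted p = 0.109), without HF library 1 (adjusted p = 0.368) and without HF library 2 (adjusted p = 0.130), the last 2 with the 1 remaining HF library assumed to vary as the HB libraries do. Ttr (chromosome 18, 20664209 to 20674326) measured 5755 and 6753 RPKM in HF and 6425 and 8061 RPKM in HB, with overlap between groups. Its log2 difference of 0.21 did not pass (SE 0.34, adjusted p = 0.676). The partners of the complex thus gave values of 1.00 and 0.21, and the difference between these values was not tested.

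In footprints neither partner passed. Ttr footprints measured 3736 and 3615 RPKM in HF and 5295 and 4127 RPKM in HB. Both HB values lay above HF, and the log2 difference of 0.35 did not pass (SE 0.36, adjusted p = 0.731). Rbp4 footprints measured 2891 and 2893 RPKM in HF, and the HB values of 3622 and 2508 RPKM fell on either side of them. The reads behind the Rbp4 value in HB library 2 numbered 331, which gives a 95% Poisson interval of 2245 to 2794 RPKM that covers counting error only.

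Of the metal carriers, Trf passed in mRNA and Cp did not. Trf (chromosome 9, 103208876 to 103230286), the iron carrier of plasma, had 1901 and 2281 RPKM in HF and 4878 and 4094 RPKM in HB. Its lowest HB library stood well above its highest HF library. The log2 difference was 1.10 (SE 0.32, adjusted p = 0.0307), a 2.15-fold higher level with a 95% interval from 1.31-fold to 3.50-fold. The call was lost without a filter (adjusted p = 0.137), with the crossed block (0.0647), without HF library 1 (0.263) and without HF library 2 (0.106). Cp (chromosome 3, 19956933 to 20009750), the copper-bearing ferroxidase that lets iron load onto transferrin, was the lowest carrier mRNA, with 151 and 171 RPKM in HF and 182 and 123 RPKM in HB. The HB libraries enclosed the HF libraries. Its log2 difference was -0.10 (SE 0.28, adjusted p = 0.810) and was 0.17 after the shift to a common median.

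Trf footprints did not separate the groups. They measured 5499 and 4023 RPKM in HF and 5081 and 3702 RPKM in HB, so that library 1 was the higher library in both groups. The log2 difference was -0.12, with a 95% interval from 0.447-fold to 1.90-fold, which reaches into the interval of the mRNA. Cp footprints measured 168 and 153 RPKM in HF and 91.6 and 163 RPKM in HB, the low value resting on 111 reads (95% Poisson interval 75.4 to 110 RPKM). That library stood below the other 3, and the difference of -0.39 did not pass (SE 0.37, adjusted p = 0.706).

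Ahsg, Fetub and Hrg belong to the cystatin superfamily and follow each other on chromosome 16, with 18.9 kb between Ahsg (22892015 to 22899451) and Fetub (22918382 to 22939768) and 11.3 kb between Fetub and Hrg (22951072 to 22961659). Ahsg, also named fetuin-A, binds calcium phosphate and inhibits the insulin receptor. Its mRNA measured 1610 and 2084 RPKM in HF and 3219 and 3831 RPKM in HB, without overlap. The log2 difference of 0.94 narrowly missed the threshold (SE 0.32, adjusted p = 0.0532), at 1.92-fold with a 95% interval from 1.17-fold to 3.13-fold. It passed in 6 of the 9 other processing settings with adjusted p from 0.0171 to 0.174 over these 9. It also passed without HB library 1 or HB library 2, but not without HF library 1 (adjusted p = 0.401) or HF library 2 (adjusted p = 0.138). Fetub, or fetuin-B, an inhibitor of proteases that harden the egg coat, went the other way. Its mRNA measured 630 and 751 RPKM in HF and 246 and 406 RPKM in HB. Both HB libraries were below both HF libraries, and the log2 difference was -1.12 (SE 0.32, adjusted p = 0.0295), which is 2.17-fold lower. The Fetub call was lost after the shift to a common median (adjusted p = 0.0957), without a filter on low values (0.0963), without HB library 1 (0.0540), without HF library 1 (0.0653) and without HF library 2 (0.135). Hrg, a histidine-rich glycoprotein that binds zinc, heparin and plasminogen, measured 266 and 344 RPKM in HF and 365 RPKM in each HB library, and its difference of 0.27 did not pass (SE 0.27, adjusted p = 0.481).

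The 3 neighbours therefore had mRNA differences of 0.94, -1.12 and 0.27 within a stretch of 1 chromosome. The next genes of the same superfamily, Kng2 (24.2 kb after Hrg) and Kng1 (29.1 kb further on), which encode kininogens, had values of 0.28 and -0.35, and neither passed (adjusted p = 0.505 and 0.384). Beside albumin, its family member Afm had a value of -0.38 (adjusted p = 0.306), and Afp, the fetal albumin, was at 0.0795 to 0.213 RPKM and was not tested.

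In footprints the fetuins showed no separation. Ahsg measured 1869 and 1689 RPKM in HF and 2066 and 1778 RPKM in HB. Fetub measured 133 and 108 RPKM in HF and 123 and 130 RPKM in HB, on 29 to 179 reads, the fewest of the 10 genes. Hrg measured 555 and 448 RPKM in HF and 459 and 475 RPKM in HB. For Fetub the 95% interval of the footprint difference was 0.653-fold to 1.72-fold as deposited, and with a common RPKM sum the log2 difference was -0.78 (SE 0.45).

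Ambp encodes a precursor that is split into alpha-1-microglobulin, a lipocalin that binds heme, and bikunin, a protease inhibitor. Its mRNA (chromosome 4, 63143275 to 63154172) measured 1214 and 1793 RPKM in HF and 2106 and 2192 RPKM in HB. The HB libraries lay above HF, and HF library 1 was the low value. The log2 difference of 0.54 did not pass (SE 0.32, adjusted p = 0.229). Ambp footprints measured 834 and 647 RPKM in HF and 853 and 868 RPKM in HB, and the difference of 0.23 did not pass (SE 0.28, adjusted p = 0.776).

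Across the 10 carriers 0 genes passed in footprints by limma at an adjusted p under 0.05, as for 0% of the 11190 genes tested. At an unadjusted p under 0.05, 0 of 10 carriers were reached, beside 1.72% of all genes higher and 8.31% lower. The median log2 difference of the carriers was 0.06 and that of all genes was -0.43. The groups did not overlap for Ttr and Ambp, 2 of 10 above (9.07% of all genes), and for 0 of 10 below (33.2%). The sign of these small differences depends on the scaling and so is not read. The medians of the carriers and of all genes were -0.81 and -1.05 with a common RPKM sum, closer together than as deposited. With a common median they were 0.39 and -0.10, a shift that by construction keeps the gap as deposited. The intervals were wide, and the smallest upper bound among the 10 was 1.48-fold, for Cp.

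The ratio of footprints to mRNA ran below 1 for Fetub, Ambp and Ttr in all 4 library pairs and above 1 for Hrg in all 4. The sources used here do not say which RNA-seq and Ribo-seq libraries share animals, so a pair shares only a group and a number. The TE of Trf was 2.89 and 1.76 in HF and 1.04 and 0.904 in HB. Both HB values were lower, and the log2 difference of -1.22 did not pass (SE 0.53, adjusted p = 0.424, unadjusted p = 0.0603). Rbp4 had a TE of 1.23 and 0.954 in HF and 0.754 and 0.419 in HB (log2 difference -0.94, adjusted p = 0.569). Fetub had the lowest TE of the 10 genes in HF, at 0.210 and 0.143, and measured 0.502 and 0.319 in HB (log2 difference 1.20, adjusted p = 0.572). For the 3 genes called in mRNA, the TE groups thus did not overlap and lay on the side opposite to the mRNA difference, and since mRNA is the denominator of TE this is not a separate result.

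Of the other carriers, Ahsg had a TE of 1.16 and 0.810 in HF and 0.642 and 0.464 in HB (log2 difference -0.83, adjusted p = 0.607). Lengths implied by the RPKM steps differed between assays for Ahsg (1429 bases in RNA-seq and 1514 in Ribo-seq) and Fetub (1340 and 1575). If only the length differs, this scales their TE by the same factor in every library and leaves the group difference as it is. Whether the same part of each gene was counted in both assays is not known. Gc stood at 1.18 and 1.03 in HF and 0.825 and 0.892 in HB. Hrg stood at 2.09 and 1.30 in HF and 1.26 and 1.30 in HB, so that library 2 of the groups was nearly level. Alb, Ttr, Ambp and Cp overlapped between groups, with log2 differences from -0.31 for Ambp to 0.14 for Ttr. By limma 0 of 10 carriers passed in TE at an adjusted p under 0.05 (0% of 9455 genes), and at an unadjusted p under 0.05 0 of 10 did, beside 2.83% higher and 9.37% lower. Non-overlap was seen for 1 of 10 above (14.0% of all genes) and 5 of 10 below (31.7%). The median TE difference of the carriers was -0.34 and that of all genes was -0.35.

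**Figure D3:**
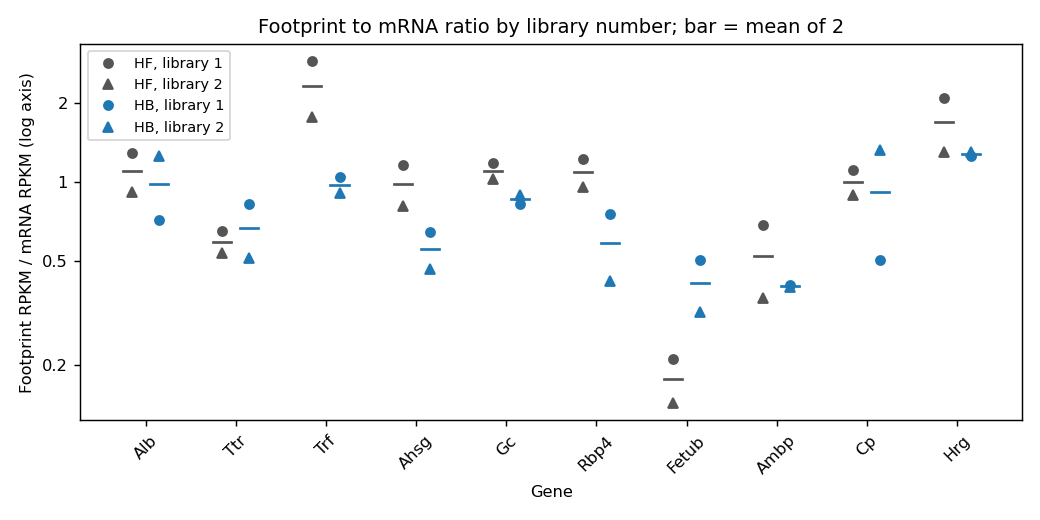
Footprint RPKM divided by mRNA RPKM (log axis) of the 10 carrier genes for the library pairs of HF and HB, with circles for number 1, triangles for number 2 and bars for the mean of 2. Trf, Ahsg, Gc, Rbp4 and Hrg lay lower in HB, and Fetub higher, without overlap.

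As a share of each library, the 10 carriers held 5.92% and 6.83% of the mRNA RPKM sum in HF and 9.20% and 7.35% in HB. Both HB libraries were above HF, at a ratio of group means of 1.30, and the two-sided exact permutation p of 0.333 is the smallest that 2 against 2 libraries can give. Without Alb the ratio was 1.45, with 2.60% and 3.12% in HF and 4.28% and 4.05% in HB. Alb alone held 3.40% to 5.14% of a library and ranked 1 to 4 among all mRNA entries, and Ttr ranked 10 to 11. Cp was the smallest part, at 0.0175% to 0.0293%.

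In footprints the share of all RPKM was 4.20% and 3.09% in HF and 2.46% and 1.75% in HB, a ratio of 0.577 (exact permutation p = 0.333). The share of the short RNA symbols was higher in HB, opposite to the share of the carriers. Mir122, a liver microRNA, was listed in Ribo-seq at 68849 and 132980 RPKM in HF and at 418561 and 778452 RPKM in HB. Among symbols of protein-coding genes the carriers held 10.9% and 9.09% in HF and 8.40% and 10.8% in HB, with overlap and a ratio of 0.962 (exact permutation p = 0.667). As a share of recovered reads the values were 8.73% and 7.28% in HF and 7.86% and 8.80% in HB, a ratio of 1.04. Alb ranked 7 to 13 among all footprint entries but 1 to 3 among protein-coding ones. Fetub ranked 92 to 356 among protein-coding mRNAs and 418 to 571 among protein-coding footprints.

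**Figure D4:**
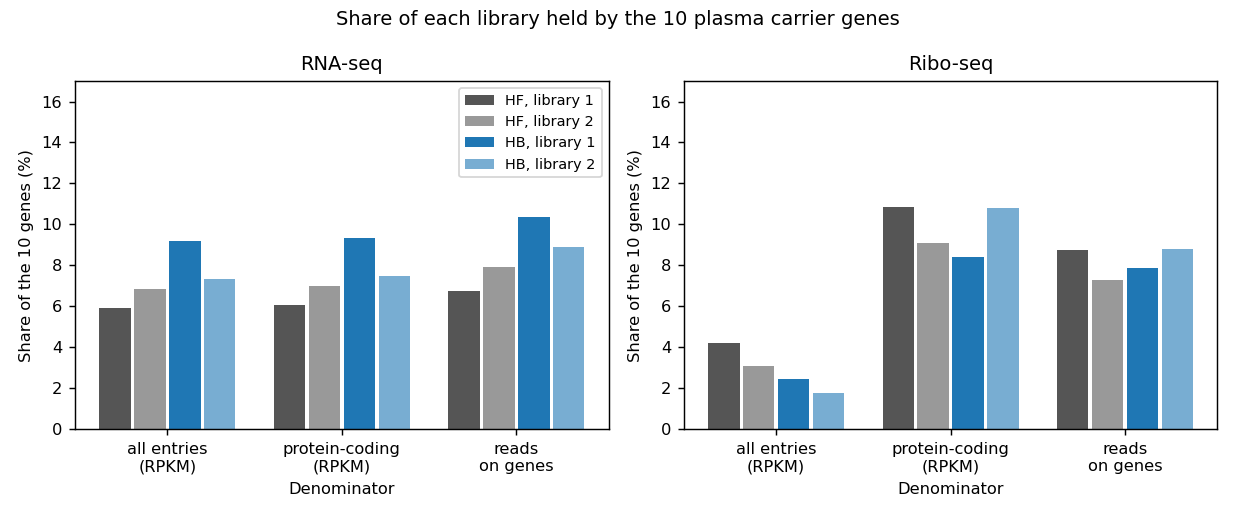
Share of each library (%) held by the 10 carrier genes in RNA-seq and Ribo-seq, as bars per library, with all entries, protein-coding symbols or reads on genes as the denominator. The RNA-seq bars of HB stand above those of HF for each denominator, and the Ribo-seq bars separate only for all entries.

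Among other secreted carriers calls were made in both directions. Of 18 listed, 15 were tested in mRNA, and 4 passed as higher (7.92% of all genes) and 2 as lower (19.1%), with a median of -0.07 beside -0.19 for all genes. Apom, the carrier of sphingosine-1-phosphate on HDL, was higher by 1.82 (adjusted p = 0.00526), with 18.4 and 17.6 RPKM in HF and 82.9 and 52.7 RPKM in HB. Selenop, which carries selenium, was higher by 1.43, Serpina7, which carries thyroxine, by 1.23, and Tcn2, which carries vitamin B12, by 0.74 (adjusted p = 0.0213, 0.0413 and 0.0477). The acute phase lipocalins Orm3 and Lcn2 were lower by 2.55 and 1.58 on the log2 scale (adjusted p = 0.00581 and 0.0408). Orm3 measured 65.7 and 21.9 RPKM in HF and 5.22 and 6.15 RPKM in HB. Lcn2 measured 54.7 and 18.4 RPKM in HF and 6.45 and 15.4 RPKM in HB, so HF library 1 was the high value for both. Thus of the thyroxine carriers, Serpina7 passed at 14.5 to 56.8 RPKM, and the far more abundant Ttr and Alb, which also binds thyroxine, did not.

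Of 23 genes that load, process or take up the cargo, 21 were tested in mRNA, with 3 higher (7.92% of all genes), 3 lower (19.1% of all genes) and a median of 0.02. Those higher were Cyp2r1, the vitamin D 25-hydroxylase (1.05), Slc31a1, the copper importer (0.93), and Fcgrt, the receptor that rescues albumin from breakdown (0.85). Those lower were Hamp, which encodes hepcidin, the hormone that blocks iron export (-1.54), its similar copy Hamp2 (-1.52), and Stra6l, a receptor of Rbp4 (-1.17). Reads may be split between Hamp and Hamp2. Hamp mRNA measured 5918 and 8675 RPKM in HF and 2113 and 2859 RPKM in HB. Footprints of Hamp and Hamp2 had the opposite sign, at 63.5 and 443 RPKM in HF and 1092 and 625 RPKM in HB for Hamp (log2 difference 2.29, adjusted p = 0.519), and at 0 and 2.17 RPKM in HF and 53.4 and 48.4 RPKM in HB for Hamp2 (unadjusted p = 0.00110, adjusted p = 0.493). In Ribo-seq, 3 reads on a gene of 1 kb would give 7.73 and 2.84 RPKM in HF. In HB they would give 11.7 and 21.1 RPKM, so the Hamp2 footprints rest on few reads. Fcgrt footprints were also opposite to its mRNA, at 105 and 101 RPKM in HF and 64.9 and 28.4 RPKM in HB (log2 difference -1.24, unadjusted p = 0.0438, adjusted p = 0.493). Of 43 genes of the secretory pathway, 11 passed as higher and 1, Sec31a, as lower (-0.79), beside 7.92% and 19.1% of all genes. Their mRNA median was 0.45 with 38 of 43 above 0, beside -0.19 and 39.8% for all genes. In footprints 15 of 43 were above 0, beside 29.6% of all genes (median -0.15, all genes -0.43), and in TE 11 of 43 were, beside 36.8% (median -0.66, all genes -0.35). Spcs1 of the signal peptidase (1.82), Pdia6 of disulfide formation (1.34), Dad1 of N-glycosylation (1.18) and Sec61b of the translocon (1.08) had the smallest p among them. In footprints and TE 0 genes of these 3 lists passed by limma, as for all genes. At an unadjusted p under 0.05 in footprints (1.72% of all genes higher, 8.31% lower), the secretory genes gave 2 higher and 1 lower, the cargo genes 1 higher and 1 lower, and the other carriers 0 higher and 1 lower. In TE (2.83% higher, 9.37% lower) the secretory genes gave 0 higher and 3 lower, the cargo genes 2 higher and 2 lower, and the other carriers 0 higher and 1 lower.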

How the data were processed

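The deposited values were RPKM per gene and library, which the authors made by mapping reads to mm10 with FANSe2; the annotation and the part of each gene that was counted are not given in the sources used here. The submitters' processing notes also name edgeR, which needs counts and was not used. The members and gene lists were chosen with earlier results of these data known. Genes whose RPKM averaged 1 or more in the 4 libraries entered limma 3.58.1 (R 4.3.3, intensity trend) on log2(RPKM + 1), which understates changes of low genes, two-sided, with Benjamini-Hochberg adjustment over all genes tested. In RNA-seq 4 entries with a shared symbol were left out. TE was tested on log2((footprint RPKM + 1)/(mRNA RPKM + 1)). Shares were compared by exact permutation. Whole reads were recovered from the steps of low RPKM values within a tolerance of 0.03 of a read (Alb mRNA with its Ribo-seq length), gave 95% Poisson intervals, and served for the share of reads. Named genes were the 10 carriers, their chromosomal neighbours and, from each other list, up to 4 genes a direction with the smallest p among mRNA calls. Results were recomputed with pseudocount 0.1, with a minimum mean of 5 or none, with other scalings, without the trend, and with a replicate block, an interaction model for TE and leaving out each library. Scripts were tested on simulated data.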

Additional observations from a re-analysis of the deposited data

How the results depend on the processing

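The call counts and medians of the carriers kept their direction in most settings, with these exceptions, whose cause was not tested. Without a filter, 0 carriers were called higher and 0 lower, and 0 of all genes passed by limma, with 1532 higher and 3387 lower at an unadjusted p under 0.05. With a common median, 0 carriers were lower, the mRNA median was 0.567 and Cp was 0.17, the footprint median was 0.387, and Trf, Gc and Hrg footprints were 0.21, 0.28 and 0.23. With a common RPKM sum, the footprint median was -0.814 (Alb -0.81, Ttr -0.53, Ahsg -0.77, Rbp4 -0.82, Fetub -0.78, Ambp -0.65), the TE median was -1.17 and Ttr TE was -0.69. With a common sum of protein-coding symbols (chosen after seeing the data), the footprint median was -0.0789 (Alb -0.0771, Ahsg -0.0313, Rbp4 -0.0806, Fetub -0.0557). The ratio of the footprint share was 0.962 over protein-coding symbols, 1.02 without short RNA, Gm and mt- symbols and 1.04 over reads.

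Leaving out 1 library at a time, with the lone library assumed to vary like the other group, gave 0 to 3 carriers higher and 0 to 1 lower in mRNA, medians of 0.190 to 0.469 (mRNA), -0.0578 to 0.145 (footprints) and -0.584 to -0.0776 (TE), and Cp mRNA of -0.39 to 0.18. Footprint values ran from -0.14 to 0.27 (Alb), -0.35 to 0.11 (Trf), -0.145 to 0.0549 (Gc), -0.21 to 0.32 (Rbp4), -0.0660 to 0.233 (Fetub), -0.799 to 0.0259 (Cp) and -0.249 to 0.0578 (Hrg). TE values ran from -0.61 to 0.21 (Alb), -0.20 to 0.48 (Ttr), -0.78 to 0.15 (Ambp) and -0.98 to 0.41 (Cp).

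No source used here says that same-numbered libraries share anything else. Deviations of same-numbered HF and HB libraries correlated across genes at -0.104 in RNA-seq and -0.0138 in Ribo-seq, and those of RNA-seq and Ribo-seq at -0.00239 in HF and -0.0774 in HB. With the replicate number as a block, 3 carriers were higher in mRNA, with Ahsg added (adjusted p = 0.0171), 1 was lower and 0 were called in footprints or TE. With crossed numbers as a block (chosen after seeing the data), 0 were higher and 1 lower.

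Counting error is widest for Fetub footprints, with 29 to 179 reads.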
